A study of Homo sapiens with 3 samples.

Results

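The genes described are 10 genes of the epithelial-mesenchymal transition, among 20033 protein-coding genes annotated on chromosomes 1 to 22, X and Y. They were named from a list rather than picked by signal, although earlier results of these data were then known. They comprised 2 epithelial markers (CDH1 and EPCAM), 3 mesenchymal markers (CDH2, VIM and FN1) and 5 transcription factors that repress epithelial genes (SNAI1, SNAI2, ZEB1, ZEB2 and TWIST1). To investigate where ZBTB11, a zinc-finger protein with a BTB domain, occupies the genome of lung cancer cells, the study immunoprecipitated chromatin from NCI-H1299, an established human line labelled lung adenocarcinoma, wild type and untreated. There was 1 library with an antibody to ZBTB11, 1 with normal IgG as negative control, and 1 Input library that is not analysed here. All 3 came from formaldehyde-fixed cells, so the libraries differ in the antibody and not in a treatment. For each gene, ZBTB11 peaks within 3 kb of any annotated transcript start (TSS) and in the gene body were taken from the authors' list. IgG peaks were compared only for VIM and ZEB1, which lie on chromosome 10, because the IgG list held peaks on 4 of these chromosomes only (1, 10, 21 and Y).

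In the epithelial-mesenchymal transition, cells joined by E-cadherin junctions lose their polarity, loosen their contacts and gain intermediate filaments and matrix proteins of migrating cells. The switch is driven by zinc-finger factors of the SNAI and ZEB families and by the basic helix-loop-helix factor TWIST1. These factors bind E-boxes in promoters of epithelial genes such as CDH1 and recruit corepressors. In carcinoma, partial forms of the transition accompany invasion and spread. Peaks describe where the antibody recovered DNA, and the level of the transcripts was not part of these data.

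The ZBTB11 list held 346891 peaks on the analysed chromosomes. It was called at a p-value below 0.05, and 92.3% of its peaks had a q-value (the p-value adjusted by the peak caller) above 0.05. The deposited fold enrichment and p-value together give the whole number of overlapping DNA fragments at a summit, the highest point of a peak. That number ranged from 3 to 515 over all ZBTB11 peaks, with a median of 5, and was 6 or fewer in 85.3% of them. The genome-wide background was 1.35 fragments for ZBTB11 and 1.55 for IgG. Intervals given beside fragments are exact 95% Poisson intervals and cover counting error only. With 1 library per antibody, no test across replicates was possible, and differences between genes or gene groups were not tested.

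Of the 10 genes, 9 had a ZBTB11 peak near a TSS, where 87.7% of all protein-coding genes had such a peak at this threshold. At p of 1e-05 or less, 4 of 10 had such a peak (CDH2, SNAI2, ZEB1 and ZEB2), against 46.9% of all protein-coding genes. At q of 0.05 or less, VIM was added to these genes and the count was 5 of 10, against 55.3%. The shares of the 10 genes were thus near the background under each rule. The 2 epithelial markers had 0 peaks past either limit, while 1 of 3 mesenchymal markers and 3 of 5 repressors had a peak of p 1e-05 or less. The genes had a median of 9.5 annotated transcript starts, against 5 for all protein-coding genes, and their windows covered a median of 19.0 kb against 12.1 kb. Per 100 kb of window, the 10 genes had 13.07 ZBTB11 peaks and all protein-coding genes 15.33.

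CDH1 encodes E-cadherin, the adhesion protein whose loss defines the transition (ENSG00000039068.20, hg38 chromosome 16, 68737292 to 68835537, plus strand). It had 4 ZBTB11 peaks near its 10 annotated starts, all in introns, and no TSS lay inside any of them. Positions below are those of the summit relative to the nearest TSS of the gene itself, with negative values upstream. The peak nearest to the canonical start (68738139 to 68738611) had its summit at +859 bp, with a fold enrichment of 2.55, a −log10 p of 2.57 and 5 fragments (interval 1.62 to 11.7). The strongest (68807435 to 68807747) had its summit at −967 bp of an internal start and 70268 bp downstream of the canonical one, with a fold enrichment of 2.97, a −log10 p of 3.29 and 6 fragments (2.2 to 13.1). It ranked 44022 in the whole list, among peaks tied in p and fold that were ordered by position only. Peaks tied with it at ZEB1 and FN1 ranked 39849 and 47213. The other CDH1 peaks near a TSS lay at −2643 bp with 5 fragments and at −135 bp with 4. Every CDH1 peak thus stood at 6 fragments or fewer, the range that holds most of the whole list, and 59.9% of protein-coding genes had a stronger peak near a TSS than CDH1.

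EPCAM encodes the epithelial cell adhesion molecule (ENSG00000119888.11, chromosome 2, 47345158 to 47387601, plus strand). It had 1 peak near its 6 starts, at 47376299 to 47376795, with the summit in an intron at +2851 bp. The fold enrichment was 1.70, the −log10 p was 1.31 and the summit held 3 fragments (0.619 to 8.77), the lowest number in the list. The nearest TSS of any gene to this summit was that of MIR559, at 1049 bp. No peak covered a start of EPCAM, and 86.5% of protein-coding genes had a stronger peak. The peaks of the 2 epithelial markers near a TSS thus had 6 fragments or fewer. That of EPCAM stood at the weak end of the list, whereas the strongest of CDH1 lay in a block of tied peaks around rank 44022 of 346891.

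CDH2 encodes N-cadherin, the cadherin that mesenchymal cells carry in place of E-cadherin (ENSG00000170558.10, chromosome 18, 27932879 to 28177946, minus strand). It had the smallest p-value of the 10 genes and 2 strong peaks beside its canonical start. The first (28175975 to 28176423) lay in an intron with its summit at +798 bp, a fold enrichment of 5.07, a −log10 p of 10.2 and 19 fragments (11.4 to 29.7) over a local background of 2.94. It ranked 7439 of all peaks. The second (28176749 to 28177837) covered the canonical start, with its summit at −113 bp, a fold enrichment of 4.03, a −log10 p of 6.97 and 15 fragments (8.4 to 24.7). The intervals of both peaks overlap, and the difference in their heights was not tested. The other 5 peaks lay near internal starts more than 140 kb downstream and had 3 to 5 fragments. In 31.5% of protein-coding genes the strongest peak was stronger than that of CDH2.

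VIM encodes vimentin, the intermediate filament protein of mesenchymal cells (ENSG00000026025.16, chromosome 10, 17228241 to 17237593, plus strand). A wide peak (17228159 to 17229275) covered its canonical start and had its summit in an intron at −30 bp of an internal start and +598 bp of the canonical one. Its fold enrichment was 3.34, its −log10 p was 4.96 and its summit held 12 fragments (6.2 to 21.0) over a background of 2.89. This was the value just outside the limit of p 1e-05 (a −log10 p of 5.0), and that of SNAI2, at 5.06, was just inside it. A second peak (17230022 to 17230586) in the 5′ UTR of a transcript, at −237 bp, had 9 fragments (4.12 to 17.1) and a −log10 p of 3.05. VIM was the only gene of the 10 whose listed peaks all exceeded 6 fragments.

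FN1 encodes fibronectin, a matrix protein secreted by mesenchymal cells (ENSG00000115414.21, chromosome 2, 215360440 to 215436073, minus strand). It had 5 peaks near its 19 starts, of 3, 4, 5, 5 and 3 fragments, and none covered a start. The 2 strongest were tied, each with a −log10 p of 2.57 and 5 fragments (1.62 to 11.7). They lay in introns (215395703 to 215395960 and 215412393 to 215412650), at −2046 and −2499 bp of internal starts and 40301 and 23619 bp downstream of the canonical one. The peak nearest to the canonical start lay upstream at −1857 bp, with 3 fragments, and its summit was 1618 bp from a TSS of FN1-DT, a neighbouring non-coding gene. Thus the 3 mesenchymal markers did not form a group. CDH2 and VIM had a peak on the canonical start, whereas FN1, like CDH1, had only peaks of 6 fragments or fewer. The interval of the CDH2 summit overlaps that of FN1 only slightly, from 11.4 to 11.7 fragments. The local background differed between them, 2.94 at CDH2 and 1.35 at FN1, and the intervals take no account of it.

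The DNA under the strongest peaks of CDH2 and VIM is shown because it holds the places that these results turn on. Each sequence is the 101 bases centred on a summit in hg38, read 5′ to 3′ on the strand of the gene. Capitals mark the core GGAA or its reverse complement TTCC. This core lies within both forms of the consensus, CCGGAAG and CAGGAAG, that the study gave for ZBTB11. Both forms also share their first C and last G, which are not marked.
CDH2 chr18:28176152-28176252 (minus strand): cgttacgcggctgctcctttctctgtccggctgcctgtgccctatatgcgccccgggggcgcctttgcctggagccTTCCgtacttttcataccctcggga
CDH2 chr18:28177193-28177293 (minus strand): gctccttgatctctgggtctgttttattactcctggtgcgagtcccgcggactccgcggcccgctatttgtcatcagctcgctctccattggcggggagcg
VIM chr10:17228789-17228889 (plus strand): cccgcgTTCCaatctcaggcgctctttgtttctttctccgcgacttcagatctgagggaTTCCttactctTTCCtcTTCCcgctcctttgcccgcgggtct
The first CDH2 window held 1 GGAA core, the second held 0, and the VIM window held 4, all on the opposite strand. None of these windows held the full consensus.

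ZEB1 and ZEB2 encode E-box-binding zinc-finger homeobox factors that repress CDH1. At ZEB2 (ENSG00000169554.23, chromosome 2, 144364364 to 144521057, minus strand) the strongest peak (144519917 to 144520341) covered the canonical start, with its summit in the 5′ UTR at −15 bp. It had a fold enrichment of 4.55, a −log10 p of 9.49 and 20 fragments (12.2 to 30.9) over a background of 3.61, the highest number of fragments among the 10 genes. A second ZEB2 peak (144516553 to 144516887) covered an internal start, with its summit at +40 bp and 3398 bp downstream of the canonical start. It had a fold enrichment of 3.795, a −log10 p of 5.76 and 12 fragments (6.2 to 21.0). The 5 other ZEB2 peaks near a TSS had 5 or 6 fragments, and these 7 peaks were spread over 46 annotated starts.

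At ZEB1 (ENSG00000148516.23, chromosome 10, 31318495 to 31529814, plus strand) the strongest peak (31318005 to 31318979) covered starts of ZEB1 and of the antisense gene ZEB1-AS1, so the signal cannot be assigned to either gene. Its summit lay in an intron at +138 bp of the nearest ZEB1 start and at −583 bp of the canonical one, with a fold enrichment of 4.93, a −log10 p of 8.93 and 16 fragments (9.15 to 26.0). The 3 other ZEB1 peaks near a TSS had 6, 5 and 5 fragments, and the canonical start itself lay in no peak. Stronger peaks were found in 32.8% of protein-coding genes for ZEB2 and in 33.9% for ZEB1. The summit windows of the strongest ZEB1 peak and of the second ZEB2 peak are shown in the same form, with GGAA and TTCC in capitals.
ZEB1 chr10:31318583-31318683 (plus strand): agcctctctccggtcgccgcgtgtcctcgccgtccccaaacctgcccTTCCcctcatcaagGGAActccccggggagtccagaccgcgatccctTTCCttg
ZEB2 chr2:144516671-144516771 (minus strand): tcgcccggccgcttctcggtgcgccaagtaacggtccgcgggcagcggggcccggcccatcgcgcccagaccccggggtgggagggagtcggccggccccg
The ZEB1 window held 3 cores and this ZEB2 window 0. At the strongest ZEB2 peak, the window held 2.

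Within the strongest ZEB1 peak lie 2 promoters of ZEB1 transcripts in the RefSeq table (assembly GRCh38.p14, which has the hg38 sequence at all 12 promoters compared), each running from 250 bases before to 50 after a start. They are shown because the first holds the E-box CAGGTG and the second the full consensus. CAGGTG gives the letters that SNAI and ZEB factors recognise. Capitals mark CAGGTG in the first sequence and CAGGAAG in the second.
ZEB1 chr10:31318167-31318466 (plus strand): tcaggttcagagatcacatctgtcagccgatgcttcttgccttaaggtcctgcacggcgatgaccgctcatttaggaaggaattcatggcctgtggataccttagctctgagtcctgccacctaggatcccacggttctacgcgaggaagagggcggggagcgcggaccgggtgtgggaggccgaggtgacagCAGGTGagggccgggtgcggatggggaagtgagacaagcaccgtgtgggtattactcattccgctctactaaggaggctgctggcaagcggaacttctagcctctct
ZEB1 chr10:31318568-31318867 (plus strand): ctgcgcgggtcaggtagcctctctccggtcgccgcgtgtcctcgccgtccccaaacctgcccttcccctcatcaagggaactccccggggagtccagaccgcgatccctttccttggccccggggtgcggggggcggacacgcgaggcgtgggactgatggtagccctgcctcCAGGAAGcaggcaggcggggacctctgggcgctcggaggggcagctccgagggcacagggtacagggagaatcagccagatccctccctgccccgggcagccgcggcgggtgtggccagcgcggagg
In this table, 5 of the 10 genes matched (CDH2, VIM, FN1, ZEB1 and ZEB2), with 12 promoters. Of these 12, 2 held the consensus on either strand, against 21.8% of all 35116 promoters, and 2 held CAGGTG, against 20.6%. The other promoter with CAGGTG, also of ZEB1 (31318966 to 31319265), begins inside the peak, runs past its end and held 3 copies. A match of letters is a description and not a site.

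**Figure D1:**
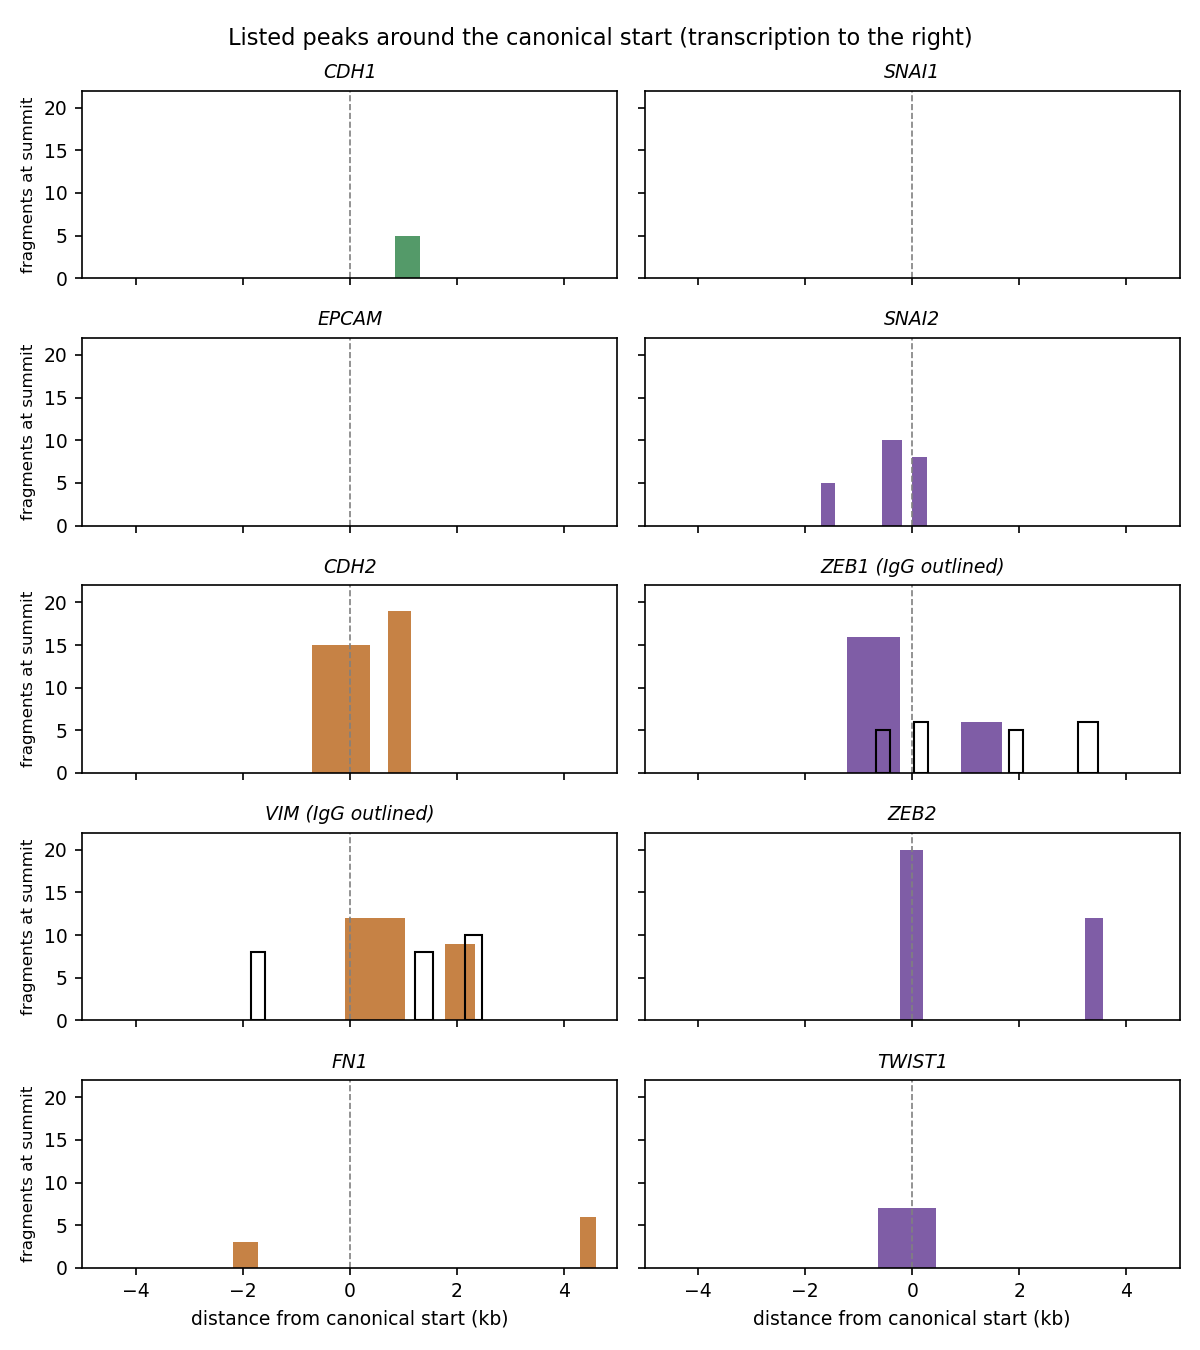
ZBTB11 peaks around the canonical start of each gene. The horizontal axis is the distance from that start in kb, positive downstream, the width of each filled bar is the interval of a ZBTB11 peak, the height is the number of fragments at its summit, and outlined bars at VIM and ZEB1 are IgG peaks. Peaks lie on or beside the start at CDH2, VIM, SNAI2, ZEB1, ZEB2 and TWIST1, with 7 to 20 fragments at the strongest, while the peaks shown at CDH1 and FN1 have 6 or fewer and EPCAM and SNAI1 have none within the plotted range.

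SNAI1 encodes Snail, a zinc-finger repressor that binds E-boxes of CDH1 (ENSG00000124216.4, chromosome 20, 49982980 to 49988886, plus strand). It was the only gene of the 10 with no listed peak within 3 kb of a TSS, and it had 1 annotated start and a window of 6.0 kb, the shortest of the 10. Peaks were listed from 3 fragments upward, but a local background above 1.35 could require more fragments to pass the p-value limit. A signal under that limit at SNAI1 was not detectable in this list. SNAI2 encodes Slug, its paralog (ENSG00000019549.13, chromosome 8, 48917598 to 48921740, minus strand), and had 3 peaks near its 3 starts. The strongest (48921624 to 48921991) covered a start, with its summit at −48 bp and at −359 bp of the canonical one, a fold enrichment of 3.65, a −log10 p of 5.06 and 10 fragments (4.8 to 18.4). A second (48921158 to 48921427) in the 5′ UTR, at +156 bp, had 8 fragments (3.45 to 15.8) and a −log10 p of 3.61, and the last, upstream at −1196 bp, had 5. The 2 Snail paralogs thus differed in listed peaks: SNAI2 had 3 in a window of 6.31 kb and SNAI1 had 0 in 6.0 kb. This difference was not tested.

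TWIST1 (ENSG00000122691.13, chromosome 7, 19020991 to 19117636, minus strand) had 1 peak near its 3 starts, at 19117191 to 19118285. It covered the canonical start, with its summit in the 5′ UTR at +67 bp, and also a start of the neighbouring gene ENSG00000236536. The fold enrichment was 3.14, the −log10 p was 3.68 and the summit held 7 fragments (2.81 to 14.4), so that it passed neither p of 1e-05 nor q of 0.05. Stronger peaks were found in 57.4% of protein-coding genes for TWIST1 and in 46.6% for SNAI2. The 5 repressors thus ranged from 0 to 20 fragments, the widest range of the 3 groups.

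**Figure D2:**
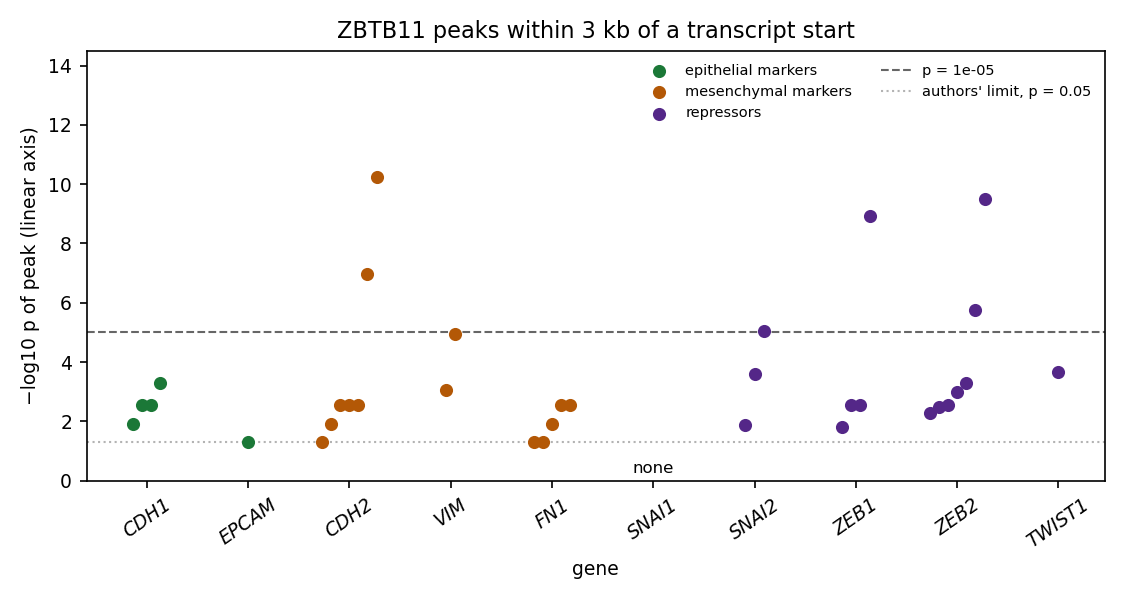
Every ZBTB11 peak near a TSS of the 10 genes, by gene (horizontal axis) and −log10 p (vertical axis, linear), coloured by group. The dashed line is p of 1e-05 and the dotted line the authors' limit of 0.05. The 6 points above the dashed line belong to CDH2, SNAI2, ZEB1 and ZEB2, VIM lies just under it at 4.96, and all points of CDH1, EPCAM and FN1 lie at 3.29 or lower.

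By the fragments at the strongest peak near a TSS, the order was ZEB2 with 20, CDH2 with 19, ZEB1 with 16, VIM with 12, SNAI2 with 10, TWIST1 with 7, CDH1 with 6, FN1 with 5, EPCAM with 3, and SNAI1 with none listed. The intervals of all neighbours in this order overlap. Only distant pairs have intervals that are apart, such as ZEB2, whose interval begins at 12.2, and FN1, whose interval ends at 11.7. Overlap of intervals does not show that heights are equal, and the intervals take no account of the local background. That background was 3.61 at ZEB2 and 1.35 at FN1, CDH1 and EPCAM. By fold enrichment, CDH2 (5.07) and ZEB1 (4.93) stood above ZEB2 (4.55), and SNAI2 (3.65) stood above VIM (3.34). The median −log10 p of the strongest peak was 2.30 for the 2 epithelial markers, 4.96 for the 3 mesenchymal markers and 5.06 for the 5 repressors, with a gene without a peak set at 0. Over the 10 genes it was 4.32, and over all protein-coding genes 4.54. A median over 2, 3 or 5 genes moves with each gene, and the difference between the groups was not tested.

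**Figure D3:**
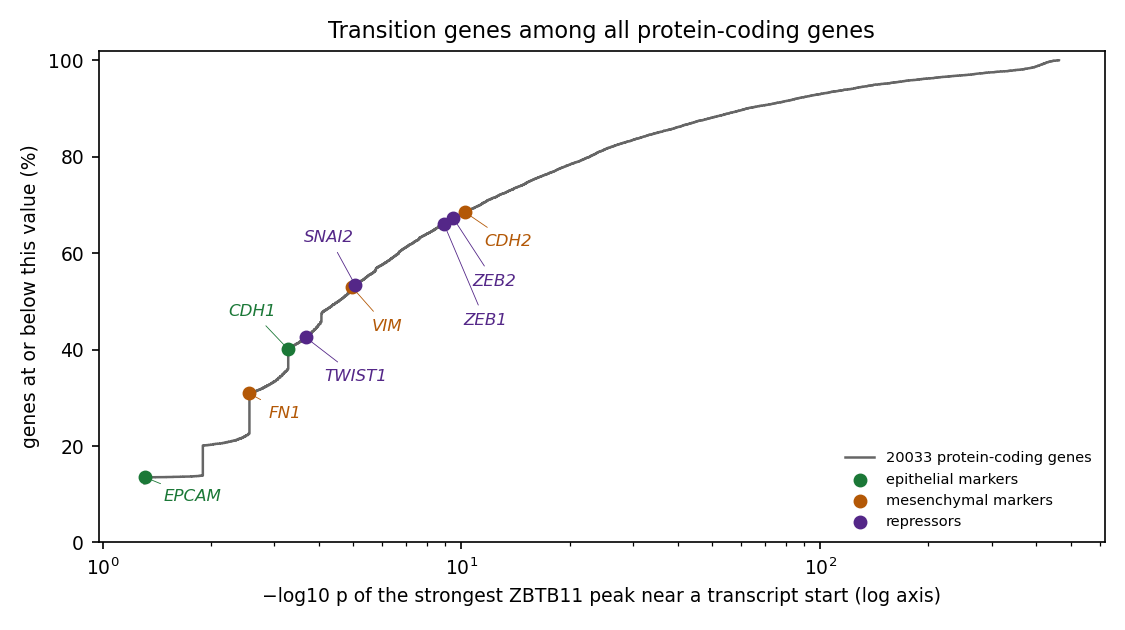
Place of the 9 genes with a peak among all 20033 protein-coding genes. The horizontal axis is the −log10 p of the strongest ZBTB11 peak near a TSS (log axis) and the vertical axis the percentage of genes at or below that value. The genes lie along the lower and middle parts of the curve, from EPCAM at 1.31 to CDH2 at 10.2, while the curve runs on to 462.

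Whether a TSS itself lay inside a peak gave a like division. A TSS lay inside a ZBTB11 peak in 6 of the 10 genes (CDH2, VIM, SNAI2, ZEB1, ZEB2 and TWIST1), against 58.2% of all protein-coding genes. The canonical TSS did so in 4 (CDH2, VIM, ZEB2 and TWIST1), against 46.2%. By group, any TSS lay inside a peak in 0 of 2 epithelial markers, 2 of 3 mesenchymal markers and 4 of 5 repressors.

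All 10 genes had a ZBTB11 peak in the gene body, against 88.2% of all protein-coding genes. There were 113 such peaks in 945 kb, which is 11.95 per 100 kb, against 12.78 for all protein-coding genes. The ratio was 0.935, with an exact Poisson interval of 0.771 to 1.12. This interval covers counting error only and not the spread between genes, whose densities ran from 7.07 to 48.27 per 100 kb. A difference in density was not tested. At p of 1e-05 or less, 4 of 10 genes had a gene body peak, against 46.7%, and these 6 peaks were those near a TSS already given. Of the 81 peaks that lay more than 3 kb from every TSS of their own gene, some of which lay nearer to a start of another gene, 78 had 6 fragments or fewer, 0 had p of 1e-05 or less, and 1 had q of 0.05 or less. That peak lay in an intron of ZEB2 (144367246 to 144367599), 29058 bp downstream of the nearest ZEB2 start, with 7 fragments and a −log10 p of 4.07.

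The 3 longest genes had the most gene body peaks. CDH2, with 245.0 kb, had 32, ZEB1, with 211.0 kb, had 30, and ZEB2, with 157.0 kb, had 16. Per 100 kb, CDH2 had 13.06 and ZEB1 14.2, close to the 12.98 and 13.75 of protein-coding genes on the same chromosomes. ZEB2 had 10.21 where its chromosome had 14.1. CDH1, with 7 peaks, had 7.12 per 100 kb where its chromosome had 11.49, and EPCAM, with 3, had 7.07 where its chromosome had 14.1. FN1 had 11 (14.54 per 100 kb, where its chromosome had 14.1). TWIST1, which runs over 96.6 kb in this annotation, had 9 (9.31 per 100 kb, where its chromosome had 12.79). VIM and SNAI2 had 2 each and SNAI1 had 1, in genes of under 10 kb. Away from the TSSs of their own gene, the strongest peaks of CDH2, ZEB1 and FN1 had 6 fragments each, those of CDH1 and TWIST1 had 5, that of EPCAM, 2559 bp from the start of MIR559, had 4 and that of SNAI1, in its 3′ UTR at 49988560 to 49988817, had 3.

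**Figure D4:**
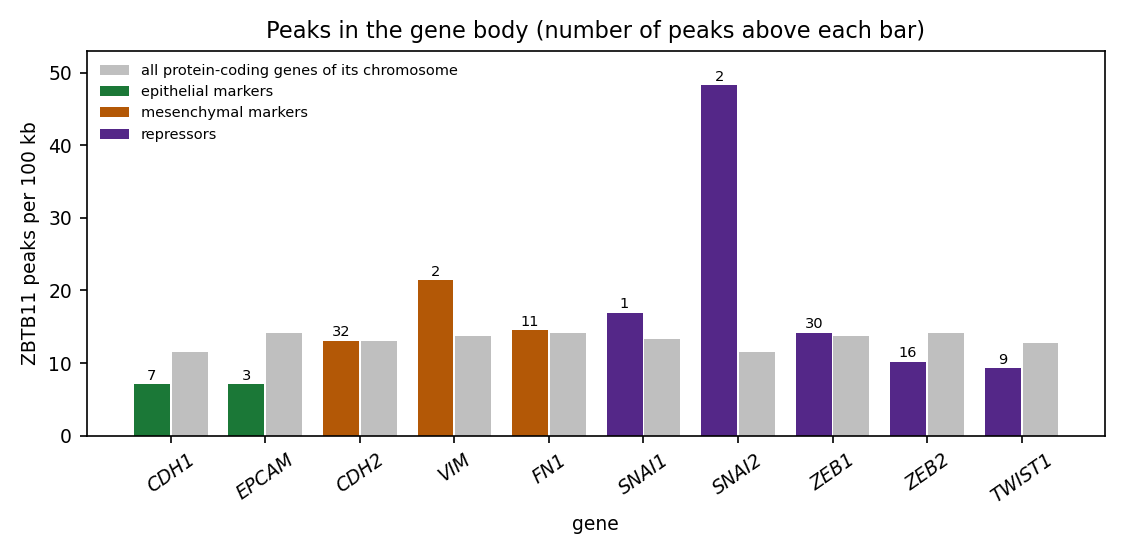
ZBTB11 peaks per 100 kb of gene body for the 10 genes, beside the value for all protein-coding genes on the same chromosome. Bars start at 0, and the number over each coloured bar counts its peaks. The short genes SNAI2, VIM and SNAI1, with 1 or 2 peaks each, stand highest, and CDH1 and EPCAM stand lowest, at 7.12 and 7.07.

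On chromosome 10, normal IgG gave 10025 peaks and ZBTB11 gave 17122, a ratio of 1.71, and 9.24% of the ZBTB11 peaks there shared at least 1 bp with IgG. At VIM the IgG list was not lower than the ZBTB11 list: there were 3 IgG and 2 ZBTB11 peaks (ratio 0.667, interval 0.0557 to 5.82). The IgG peaks of VIM lay at 17226403 to 17226665, 17229468 to 17229800 and 17230400 to 17230708, with 8, 8 and 10 fragments. The last of these, with a −log10 p of 3.98 in its own list, overlapped the second ZBTB11 peak of VIM, which had 9 fragments. The peak over the canonical start of VIM, with 12 fragments, overlapped no IgG peak. The interval of the 10 IgG fragments, 4.8 to 18.4, holds that value of 12. Those summits lie at different places, 17230533 for IgG and 17228839 for ZBTB11, and the libraries were not scaled to each other.

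At ZEB1 there were 30 ZBTB11 and 10 IgG peaks (ratio 3.0, interval 1.43 to 6.88), with medians of 4.0 and 5.0 fragments. Near the starts of ZEB1 both lists held 4 peaks. The strongest ZBTB11 peak of ZEB1, with 16 fragments, overlapped an IgG peak of 5 fragments (31318547 to 31318809), and the highest IgG peak of the gene, at 31404183 to 31404798 in the gene body, had 7. Over VIM and ZEB1 together the ratio was 2.46 (interval 1.26 to 5.11), and it was 1.23, from 16 and 13 peaks, among peaks of at least 5 fragments in both lists. The lowest listed summit was 3 fragments for ZBTB11 and 4 for IgG, so the lists began at different heights. How much of the signal at the other 8 genes normal IgG would give could not be read from the IgG list.

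To see whether the peaks of these genes carry the ZBTB11 consensus, CCGGAAG or CAGGAAG was searched on both strands in the 101 bases around each summit. It was found in 1 of the 34 peaks near a TSS (2.94%), against 7.93% of all 45753 ZBTB11 peaks near a TSS of a protein-coding gene. The match was CAGGAAG in the second SNAI2 peak, 22 bp from the summit. Among the 6 peaks of p 1e-05 or less at these genes it was found in 0, against 23.6% of the 8560 such peaks of all genes. Over whole peaks, CAGGAAG was present in 6 of the 34, at CDH1, CDH2, VIM, SNAI2, ZEB1 and TWIST1, and CCGGAAG in none. The share over whole peaks was not counted for all genes, so this count has no background beside it. In the strongest CDH2 peak it lay 105 bp from the summit, in that of VIM 285 bp, in that of ZEB1 111 bp, and in that of TWIST1 413 bp.

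Each consensus form contains the core GGAA (or TTCC). This core was found around the summit in 25 of the 34 peaks (73.5%), against 64.4% for all peaks near a TSS. Among peaks of p 1e-05 or less the direction was the other way, with 4 of 6 (66.7%) against 79.7%. The E-box CAGGTG was found in 2 of the 34 windows (5.88%), against 9.30%. Those windows were in a CDH2 peak of 5 fragments and an FN1 peak of 3 fragments, both near internal starts. With 34 windows, of which many share a gene, these shares are descriptions.

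The base composition around the canonical start varied among the genes. In the 1 kb centred there, the GC content ran from 49.4% at ZEB2 to 73.3% at CDH2. The ratio of observed to expected CpG was lowest at ZEB2, at 0.525, and highest at EPCAM, at 0.902. Protein-coding genes with a peak of p 1e-05 or less near a TSS had a median ratio of 0.791, and the other genes 0.552. CDH2 (0.879) lay above that first value with such a peak. EPCAM, TWIST1 (0.86), SNAI1 (0.802) and VIM (0.792) lay above it without one, VIM by little and with a −log10 p of 4.96. SNAI2 (0.768) and ZEB1 (0.749), which had such a peak, lay between those medians. ZEB2 had the most fragments of the 10 genes with the lowest ratio. At CDH1 and FN1, which had no such peak, the ratio was 0.695 and 0.662. The relation of this ratio to the peaks was not tested.

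To place the 10 genes among genes of related roles, 62 further genes in 3 lists were counted in the same way. These lists, too, were drawn up with earlier results of these data known. Of 22 other epithelial genes (keratins, claudins, junction proteins and epithelial regulators), 20 had a ZBTB11 peak near a TSS and 8 (36.4%) had one of p 1e-05 or less. Of 20 other mesenchymal genes (collagens, matrix proteins and surface markers), 18 and 6 (30.0%) did, and of 20 other regulators of the transition (transcription factors, TGF-beta ligands, receptors and SMADs), 19 and 12 (60.0%) did. Among the 8 epithelial genes, KRT8 and KRT18, which overlap, had identical values at their strongest peak (13 fragments), so that 1 peak appears to count for both. The medians of the strongest −log10 p in these lists were 4.03, 3.01 and 7.84. The share in all 62 was 41.9%, against the 46.9% of all protein-coding genes given above. At q of 0.05 or less, the counts in these lists were 12 of 22, 8 of 20 and 14 of 20, and in the 10 genes 0 of 2 epithelial markers, 2 of 3 mesenchymal markers and 3 of 5 repressors. The order of the groups of the 10 genes thus depended on the threshold, and differences between lists were not tested.

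Strong peaks in these lists were higher than any of the 10 genes. ESRP2, an epithelial splicing factor, had a peak of 169 fragments (144.0 to 196.0), whose nearest TSS, at 203 bp, was that of ENSG00000261469, and TJP1, a tight junction protein, had 81 (64.3 to 101.0), 114 bp from its own start and 14 bp from that of ENSG00000259523. Among mesenchymal genes, AXL, a receptor tyrosine kinase, had 52 fragments (38.8 to 68.2) and LOX, which crosslinks collagen, had 28 (18.6 to 40.5). Among regulators, SMAD2, a transducer of TGF-beta signals, had 42 (30.3 to 56.8). As for SNAI1, no peak near a TSS was listed for CLDN7, CRB3, COL5A1 and KLF8, among others.

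**Figure D5:**
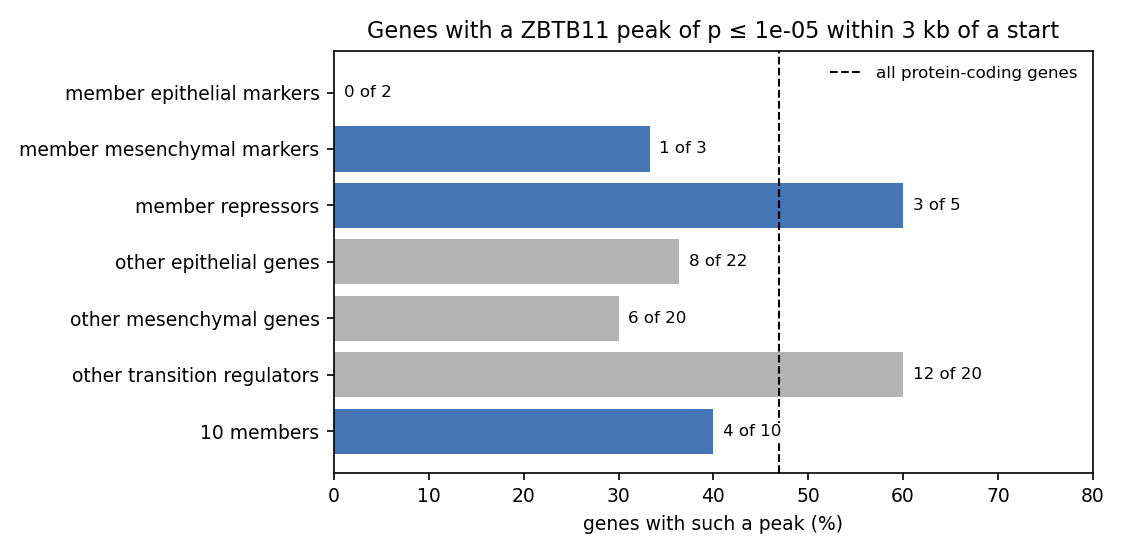
Percentage of genes in each list with a ZBTB11 peak of p 1e-05 or less within 3 kb of a TSS. Bars start at 0, blue bars are the groups of the 10 genes, grey bars the other listed genes, and the dashed line is the 46.9% of all protein-coding genes. The bars of repressors and of other regulators, both at 60.0%, lie above the line, and the others lie below it.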

How the data were processed

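The study fixed, sonicated and immunoprecipitated chromatin of untreated NCI-H1299 cells, giving 1 library each for ZBTB11, normal IgG and Input. Groups follow the sample titles, and Input is not analysed here. As its methods state, paired-end reads were mapped by the authors to hg38 using BWA, and MACS was run on each antibody by itself at p below 0.05 with default settings otherwise. The lists have the layout of later MACS releases, so which release made them is not certain. The methods state an amount of sequence but no read count per library, so depth is described by fragments at summits.

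The deposited lists give a fold enrichment per peak, which is the ratio of the summit to the local background. The authors' −log10 p and −log10 q were used to rank and filter peaks. The deposited score repeats the p-value and was not used. Fragments at the summit were solved from fold and p as a Poisson count, after adding a pseudocount of 1 to summit and background, and met the deposited p to within 0.001 in 100.0% of peaks. This step and the assignment to starts were tested on simulated data.

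Chromosomes 1 to 22, X and Y were analysed, which excluded 1501 peaks for ZBTB11 and 1165 for IgG. Genes and transcript starts came from GENCODE release 44. Peaks with any base no more than 3 kb from a start counted as near a TSS. Overlap needed 1 bp. All 10 genes are named with their peaks, and of each further list the 2 genes with the strongest peak and those with none, except that some of these genes are not reported here. Genes and lists were chosen with earlier results of these data known. Python 3.11.15, numpy 2.4.6, pandas 2.3.3, scipy 1.17.1 and matplotlib 3.10.9 were used. With 1 library per antibody no p-value across genes or peaks is given. Other windows, starts, thresholds, overlaps and summit windows were tried.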

Additional observations from a re-analysis of the deposited data

How the results depend on the processing

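No paired analysis was possible because each antibody had 1 library and no result comes from a test. Of 39 alternatives to 12 results, 23 left the value close to that reported. The authors' loose threshold decided most counts. At p of 1e-05 or less, genes with a peak near a TSS went from 9 to 4. Peaks near a TSS went from 34 to 6 and gene body peaks from 113 to 6. Summits with the consensus went from 1 to 0. ZBTB11 peaks at VIM and ZEB1 that overlap IgG went from 2 of 32 to 1 of 1. At q of 0.05 or less, genes with a peak near a TSS numbered 5, and peaks numbered 7 near a TSS and 8 in gene bodies. The density ratio then went from 0.935 to 0.68 (interval 0.293 to 1.34). Peaks near a TSS numbered 18 within 1 kb and 13 with canonical starts only, which also lowered the median −log10 p of the epithelial markers from 2.30 to 1.28. The IgG overlap fell to 0 when 50% of the ZBTB11 peak, or summits within 100 bp, were required. With at least 5 fragments, ZBTB11 had 1.23 times as many peaks as IgG at VIM and ZEB1 (2.46 in the report), and at p of 1e-05 or less it had no value, since 0 IgG peaks passed. The consensus was in 6 of 34 whole peaks, a count for which no share of all genes was taken. The alternative of canonical starts only for a TSS inside a peak (4 in place of 6) was chosen after seeing the data. The depth of 1 library, with 3 to 6 fragments at most summits, limits what can be said of CDH1, EPCAM, FN1 and SNAI1.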

Other observations

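Protein-coding genes were also divided by the CpG content at their start. With a limit of 0.6 for the ratio of observed to expected CpG, chosen after the values were seen, 62.7% of the 13278 genes at or above it had a ZBTB11 peak of p 1e-05 or less near a TSS, and 15.9% of the 6755 genes below it. Of the 10 genes, 9 were at or above the limit and 3 of them had such a peak (CDH2, SNAI2 and ZEB1). The gene below it was ZEB2, which had such a peak. With a single gene below the limit, no comparison can be made within the 10 genes.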
